A study of Mus musculus with 17 samples.

Results

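The subject is the wild-type mouse uterus 3 h after estradiol (E2), the main ovarian estrogen. The arrays were chosen by their titles, which name wild type and 3 h for 3 arrays (A, B and C) and wild type and 0 h for 2 arrays (A and B), so 5 of the 17 arrays of the series enter the main comparison. The WT 3 h group holds wild-type (WT) uteri sampled 3 h after E2, and the WT 0 h group holds WT uteri with no time elapsed after E2. The other groups used below are Egr1 knockout (KO) uteri at 3 h (2 arrays) and at 0 h (2 arrays), and WT uteri at 6 h (2 arrays). The series also has arrays at 24 h, which served only to judge how the WT 0 h arrays resemble them and to estimate the spread between arrays. Total RNA of the uterus was read on Illumina MouseWG-6 v2 bead arrays. No label states how much E2 was given, how old the animals were, whether ovaries had been removed or whether a vehicle was injected. Nor does any label say that the arrays within a group stem from different animals, so the p-values reflect spread among arrays that could be purely technical.

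E2 enters uterine cells and binds the estrogen receptor, a nuclear transcription factor, and it also sets off kinase signalling from the membrane. Within the first hours it switches on immediate-early transcription factors, raises blood flow and vessel permeability so that the tissue takes up water, and increases the machinery for RNA and protein synthesis. The epithelium divides only later, under growth factors that the underlying stroma releases. A sample at 3 h therefore falls in the early phase.

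Values are log2 signals, already normalized between arrays by the authors, so a change is measured against the rest of the array. A gene is read by its brightest probe, and signals are not compared between genes. Differences are WT 3 h minus WT 0 h on the log2 scale with the standard error (SE) of a limma fit to all 17 arrays, and adjusted p-values are limma's with the Benjamini-Hochberg adjustment over 14737 genes, at a threshold of 0.05. Below, "rose" and "fell" are used of genes past that threshold. The 3 WT 3 h arrays correlated with each other at 0.995 to 0.996 over all probes and the 2 WT 0 h arrays at 0.990. WT 0 h array A stood apart from array B: its mean correlation with the WT 24 h arrays was 0.977, against 0.957 for array B, and results that rest on it are also given without it. Of the genes the naming rule picked, 127 have another probe above the filter that moved the other way or by less than 25% of the value given. For 44 of them the value given is at least 2-fold, and their other probes were dim, with means of 8.06 to 8.70. Among the genes described below they are Angptl4, Cars, Cited2, Col3a1, Col8a2, Egr3, Fgf10, Fgfr2, Fzd10, Gucy1a1, Hbegf, Heatr1, Hgf, Il15, Klk1b5, Klk1b26, Lpl, Meis2, Mfap2, Mtcl1, Mxd4, Osmr, P4ha2, Pdgfra, Sesn1, Slc6a2, Slc6a6, Slco2a1, Sox4, Synpo, Trib3, Vegfa and Ypel3. Among genes described with smaller values they are Acta2, Ccnd1, Cry2, Cxcl12, Cxcl14, Dusp4, Eef2, Egfr, Foxo3, Iars, Lyz2, Nab1, Pecam1, Qars, Slc7a11, Sned1, Srek1 and Tef, some of them with bright other probes. The comparison of probes did not cover genes described outside the naming rule, so their absence here does not show that their probes agree.

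At 3 h 6880 genes passed the test against 0 h, which is 46.7% of the 14737 tested. They were split between 3272 higher genes (22.2%) and 3608 lower genes (24.5%). The change was at least 2-fold for 377 higher genes (2.56%) and 400 lower genes (2.71%), at least 4-fold for 66 and 24, and at least 8-fold for 15 and 1. The 3 h and 0 h arrays did not overlap for 8838 genes (60%), and the median difference of all genes was -0.007. Counts of list members below are to be read against the 22.2% higher and 24.5% lower of all genes. The members were chosen with earlier results of these data known, so such counts describe the lists and do not test them. The counts at 2-fold depended on the scale: they were 621 higher and 650 lower with the floor of the signal subtracted, and 277 and 233 with the mean of the kept probes of a gene.

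The largest rise was that of Phf21b, which encodes a PHD finger protein of chromatin, with signals of 13.54, 13.51 and 13.81 on the WT 3 h arrays, against 8.97 and 8.98 on the WT 0 h arrays. The difference was 4.64 ± 0.17 (25-fold, adjusted p = 6.83e-10). Adamts4, a secreted protease that cuts proteoglycans of the matrix, read 12.69, 12.41 and 12.71 at 3 h, against 8.52 and 8.66 at 0 h (4.01 ± 0.15, 7.12e-10). In both genes the arrays of a group lay within a narrow band far from the other group. Slc6a13, a membrane transporter of the transmitter GABA and related solutes, read 12.00, 12.14 and 12.06 at 3 h, against 8.03 and 8.40 at 0 h (3.85 ± 0.14, 6.86e-10). Col8a2, a network collagen of basement membranes, read 13.05, 13.29 and 13.13, against 9.48 and 9.62 (3.61 ± 0.12, 6.83e-10). Tmem200a rose by 3.58 ± 0.18 (3.98e-09).

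The tissue kallikrein gene Klk1, whose protease frees kinins that widen vessels, read 12.54, 12.68 and 12.37 at 3 h, against 8.30 and 8.81 at 0 h, a difference of 3.98 ± 0.14 (adjusted p = 6.83e-10). Its relatives Klk1b5 (3.58), Klk1b26 (3.37) and Klk1b27 (2.89) rose as well, but the family is near-identical in sequence and its probes can share targets, so which member rose is uncertain. Padi1, an enzyme that turns arginine of proteins into citrulline, reached 15.12, 15.28 and 14.95 at 3 h, against 12.48 and 11.70 at 0 h (3.03 ± 0.21, 7.15e-08). Scgb1c1, a secretoglobin, rose by 2.89, Tnfrsf12a, the receptor for the cytokine TWEAK, by 2.77, and the collagen prolyl hydroxylase subunit gene P4ha2 by 2.76. Synpo (2.94), which encodes an actin-binding protein, Mtcl1 (2.72), which encodes a microtubule crosslinker, and Dennd2a (2.92), which encodes an activator of a Rab GTPase, were also among the 25 largest rises.

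The largest falls were smaller than the largest rises. Dbp, a transcription factor that the circadian clock drives, read 10.92, 10.64 and 10.45 at 3 h, against 13.51 and 13.92 at 0 h, a fall of -3.04 ± 0.20 (adjusted p = 4.76e-08), which is a ratio of 0.121. Nrep fell by -2.73 ± 0.15 (9.05e-09). Tril, which encodes an accessory protein of Toll-like receptors, had the smallest adjusted p of these genes, with 8.78, 8.67 and 8.58 at 3 h, against 11.18 and 11.34 at 0 h (-2.59 ± 0.08, 2.68e-10). The tight junction gene Cldn1 read 8.45, 8.37 and 8.25, against 10.49 and 11.13 (-2.46 ± 0.14, 1.57e-08), so its 3 h signals lay near the array median of 8.2. Sspn (-2.23), a member of the dystrophin complex, Gcnt1 (-2.04), an enzyme that branches O-glycans, and Gucy1a1 (-1.98), a subunit of the nitric oxide receptor, fell too. Several fat-cell genes, among them Adipoq and Car3, also stood among the 25 largest falls and are taken up with the cell type markers. In bulk tissue, fewer cells of a type and less RNA per cell cannot be told apart.

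**Figure D1:**
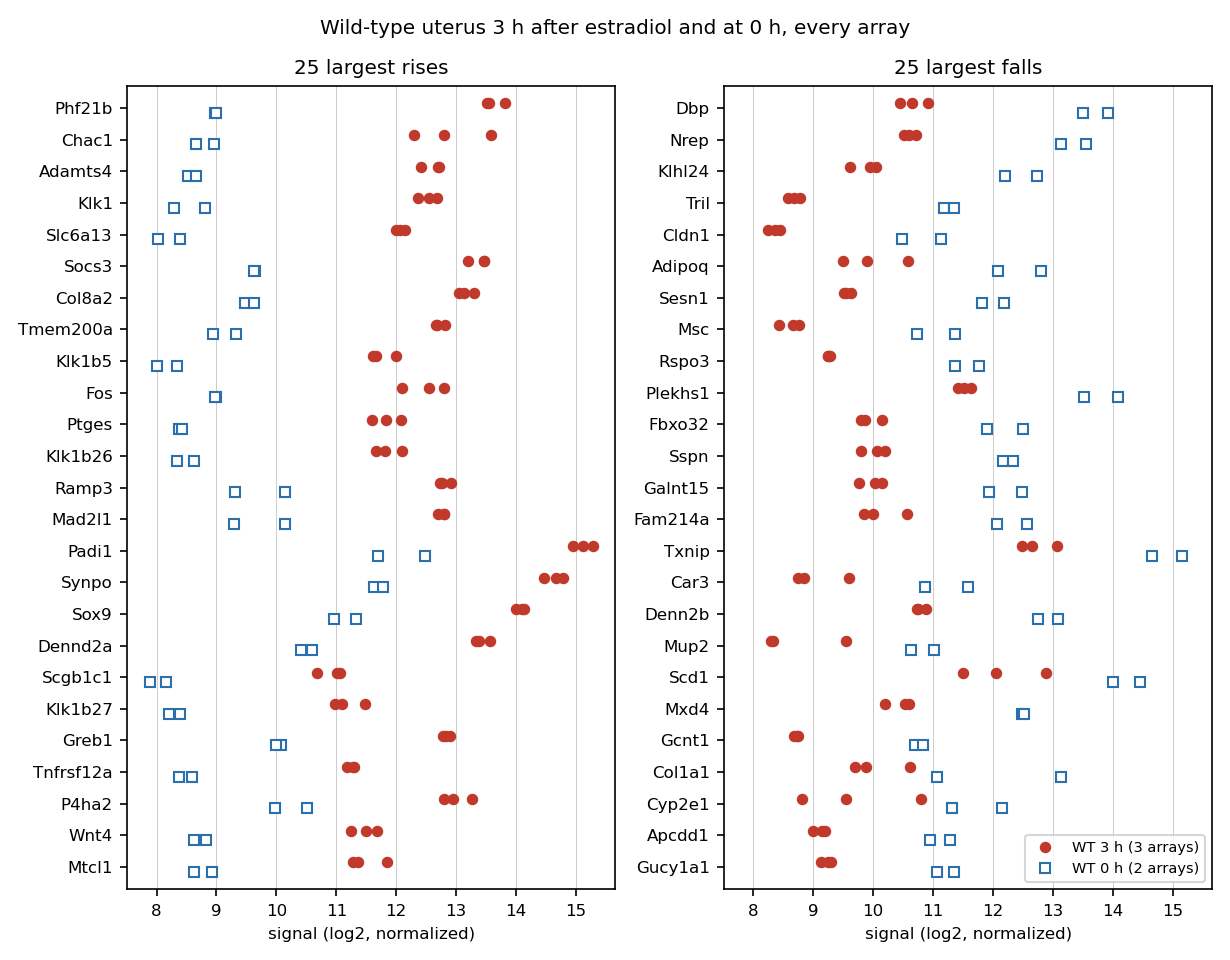
Normalized log2 signal (x axis) of the 25 genes with the largest rise (left) and the 25 with the largest fall (right) on each array. Filled circles are the 3 WT 3 h arrays and open squares the 2 WT 0 h arrays. The groups do not overlap in any of these genes, by the rule that chose them. Phf21b lies between 13.51 and 13.81 at 3 h, against 8.97 and 8.98 at 0 h.

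Immediate-early genes encode transcription factors that need no new protein to be switched on. Of 30 measured, 20 rose and 3 fell, with a median difference of 0.61 against -0.007 for all genes. The AP-1 gene Fos read 12.79, 12.54 and 12.09 at 3 h, against 8.99 and 8.98 at 0 h (3.49 ± 0.19, 11.2-fold, adjusted p = 8.99e-09). Other AP-1 genes moved less: Junb rose by 1.91, Fosl2 by 1.62, Jund by 1.15, Fosb by 0.88 and Jun by 0.74. Of the zinc-finger EGR genes, Egr3 read 11.41, 11.28 and 11.10, against 8.42 and 8.90 (2.60 ± 0.14, 1.00e-08). Egr1, the gene disrupted in the KO animals of the series, read 14.87, 14.94 and 14.56, against 12.24 and 12.51 (2.42 ± 0.17, 6.82e-08). Egr2 rose by 0.98. Ier3 (2.30), Klf4 (1.67), Atf3 (1.62) and Srf (1.35) rose as well, while Myc, on a dim probe, differed by only 0.28. The orphan receptor gene Nr4a1 did not pass (0.15, adjusted p = 0.0593). Klf9 (-1.29), Cited2 (-1.29) and Klf6 (-0.50) fell, and Klf6 no longer passed without WT 0 h array B (-0.34). Without WT 0 h array A 18 members rose, and without array B 20.

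Genes whose products shut such signals down again rose with them. Of 30 feedback inhibitors 22 rose and 3 fell, with a median of 0.61. Socs3, which blocks cytokine signalling through JAK kinases, read 13.46, 13.46 and 13.19 at 3 h, against 9.65 and 9.63 at 0 h (3.74 ± 0.17, adjusted p = 2.28e-09). Errfi1, which binds and inhibits the EGF receptor, read 14.48, 14.54 and 14.33, against 11.87 and 12.06 (2.49 ± 0.11, 1.58e-09). The phosphatase genes Dusp1 (1.29), Dusp5 (1.25), Dusp8 (1.25) and Dusp2 (1.19), whose products inactivate MAP kinases, rose by similar amounts, and Dusp6 rose by 0.83. Dusp4 read 9.03, 9.25 and 9.20, against 9.19 and 9.43, a difference of -0.15 that did not pass (adjusted p = 0.211). Zfp36, which speeds the decay of unstable mRNAs, rose by 1.37, and the EGR corepressor gene Nab2 by 0.63. Rgs2 (-0.91), Spred1 (-0.41) and Nab1 (-0.27) fell, and Nab1 lost its call without any 1 of 4 of the 5 arrays (WT 3 h A or B, WT 0 h A or B).

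Promoters of 3 of these inhibitor genes are shown because they hold elements that kinase-activated factors are known to bind. The cAMP response element (CRE, TGACGTCA) binds CREB and ATF factors, and the CArG box binds SRF. The windows run from 250 bases before to 50 bases after the RefSeq start of the gene (GRCm38.p6), 5′ to 3′ on the gene's strand, and capitals mark the CRE of Dusp1 and Errfi1, an E-box (CACGTG) of Dusp1 and the 2 adjoining CArG boxes of Dusp5. Dusp1 lies at chr17:26508423-26508722 on the minus strand, Errfi1 at chr4:150854820-150855119 on the plus strand and Dusp5 at chr19:53528895-53529194 on the plus strand.
Dusp1: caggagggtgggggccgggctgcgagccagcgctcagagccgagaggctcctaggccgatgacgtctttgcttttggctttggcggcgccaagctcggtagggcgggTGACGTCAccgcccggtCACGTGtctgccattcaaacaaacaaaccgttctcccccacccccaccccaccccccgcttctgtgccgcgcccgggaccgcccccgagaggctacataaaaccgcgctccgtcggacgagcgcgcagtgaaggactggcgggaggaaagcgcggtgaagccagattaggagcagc
Errfi1: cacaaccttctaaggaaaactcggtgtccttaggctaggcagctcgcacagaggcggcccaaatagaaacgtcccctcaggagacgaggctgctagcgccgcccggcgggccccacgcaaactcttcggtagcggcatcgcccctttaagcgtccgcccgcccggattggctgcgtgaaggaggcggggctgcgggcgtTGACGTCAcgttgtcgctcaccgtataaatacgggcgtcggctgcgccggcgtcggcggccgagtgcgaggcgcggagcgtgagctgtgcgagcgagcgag
Dusp5: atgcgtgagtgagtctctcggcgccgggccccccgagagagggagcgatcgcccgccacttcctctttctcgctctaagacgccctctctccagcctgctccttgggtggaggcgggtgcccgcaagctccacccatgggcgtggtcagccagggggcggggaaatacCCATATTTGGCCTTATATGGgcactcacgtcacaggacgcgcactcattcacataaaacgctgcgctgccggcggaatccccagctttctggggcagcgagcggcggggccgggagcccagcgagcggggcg
Counted from the start of the gene, with negative positions before it, the CRE begins at -143 in Dusp1 and at -51 in Errfi1, and the CArG boxes of Dusp5 begin at -82 and -72. Of the 313 genes with a rise of at least 2-fold and a window, 19 (6.07%) held a CRE, against 5 of 294 fallen genes (1.70%) and 361 of all 11820 tested genes with a window (3.05%). A CArG box stood in 9 of the risen genes (2.88%), 4 of the fallen genes (1.36%) and 202 of all (1.71%). The AP-1 element TGANTCA was found in 6.07% of risen, 5.78% of fallen and 7.56% of all tested genes. The EGR element GCGTGGGCG was found in 1.28%, 0.68% and 1.26%. No risen or fallen gene held the palindromic estrogen response element (GGTCANNNTGACC), which 3 of the 11820 held, so the word was too rare in these windows to compare. Both strands were searched, and a match is a run of letters, not a shown binding site.

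Genes known as targets of the estrogen receptor in the uterus mostly rose. Of 28 such genes 18 rose and 5 fell, with a median of 0.79, or 1.00 without WT 0 h array A and 0.57 without array B. Greb1, a coactivator of the receptor, read 12.83, 12.78 and 12.89 at 3 h, against 10.07 and 9.99 at 0 h (2.80 ± 0.14, adjusted p = 3.60e-09). Ramp3, a partner of the adrenomedullin receptor, read 12.73, 12.77 and 12.91, against 10.15 and 9.30 (3.07 ± 0.20, 3.64e-08). The Wnt ligand gene Wnt4 rose by 2.75 and the stress-kinase partner gene Gadd45g by 2.58. The water channel gene Aqp5 read 11.81, 11.44 and 11.41, against 9.27 and 8.59 (2.63 ± 0.16, 2.23e-08). In Ramp3 and Aqp5 the 0 h arrays differed from each other by more than the 3 h arrays did, yet the groups stayed well apart. Txnip (-2.16), which restrains thioredoxin and glucose uptake, Sox4 (-1.56), Sox17 (-0.85), Ccnd1 (-0.43) and Cxcl12 (-0.40) fell, the last not past the test without WT 0 h array B. Igf1, the stromal growth factor known as a target of E2, read 12.05, 11.85 and 12.10 at 3 h, against 12.13 and 10.92 at 0 h, and did not pass (0.47 ± 0.27, adjusted p = 0.180). Its difference was 1.08 without WT 0 h array A and -0.13 without array B, and it passed the test without array A.

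Among 33 steroid receptors and their coregulators 8 rose (24.2%) and 11 fell (33.3%), against 22.2% and 24.5% of all genes. The progesterone receptor gene Pgr rose by 1.21 ± 0.13 (adjusted p = 2.76e-06), with 10.82, 10.74 and 10.91 at 3 h, against 9.91 and 9.31 at 0 h. The estrogen receptor gene Esr1 itself fell by -0.54 ± 0.16 (0.0124), with 10.87, 10.64 and 10.79, against 11.37 and 11.24, and did not pass without WT 0 h array A (-0.47). Fkbp4, a co-chaperone that steroid receptors need to bind hormone, rose by 1.09. The coactivator gene Ppargc1a (-1.30) and the stromal receptor gene Nr2f2 (-1.22) fell, as did Gper1 (-0.81), which encodes a membrane estrogen receptor.

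ATF4 is the transcription factor of the integrated stress response, which answers amino acid shortage and other stresses. Atf4 rose by 1.39 ± 0.07 (adjusted p = 7.51e-09), and of 32 genes of its amino acid response 19 rose and 1 fell, with a median of 0.67. Chac1, an enzyme that breaks down glutathione, read 12.80, 13.58 and 12.29 at 3 h, against 8.66 and 8.96 at 0 h (4.08 ± 0.56, 16.9-fold, 3.33e-05). Its 3 h arrays spread more widely than those of the other leading rises, with array B highest. The pseudokinase gene Trib3 showed the same order, with 11.51, 11.96 and 11.23, against 8.83 and 9.04 (2.63 ± 0.32, 1.18e-05). The mitochondrial folate enzyme gene Mthfd2 rose by 2.43, the transcription factor gene Cebpb by 2.22 and the asparagine synthetase gene Asns by 1.59. The neutral amino acid transporter gene Slc1a4 rose by 1.58 and the phosphatase subunit gene Ppp1r15a, which ends the response, by 1.48. Phgdh, the first enzyme of serine synthesis, did not pass (0.02, 0.858), nor did the cystine transporter gene Slc7a11 (-0.15, 0.485), of which 3 dimmer probes differed by 0.23 to 0.45, and Gpt2 fell by -0.84. Without WT 0 h array A or without array B 17 members rose.

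The enzymes that load amino acids onto tRNAs are coded in part by ATF4 targets, and 16 of 22 cytosolic members rose with none lower (median 0.49). Without WT 0 h array B 13 rose. Cars, for cysteine, read 11.47, 11.44 and 11.25 at 3 h, against 9.29 and 9.35 at 0 h (2.06 ± 0.12, adjusted p = 1.06e-08). Aars, for alanine, read 12.54, 12.65 and 12.62, against 11.11 and 10.52 (1.79 ± 0.16, 5.86e-07). Nars, for asparagine, rose by 1.24, Iars, for isoleucine, by 1.00, and Eef1e1, a scaffold protein of the synthetase complex, by 1.31. Qars, for glutamine, read 11.65, 11.47 and 11.59, against 11.73 and 11.67, a difference of -0.13 that did not pass (adjusted p = 0.183).

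Promoters of Chac1 and Aars are shown because both hold the composite C/EBP-ATF element (TGATGCAA) that ATF4 with a C/EBP partner is known to bind. The windows follow the same rule as above. Chac1 lies at chr2:119350992-119351291 and Aars at chr8:111033592-111033891 (GRCm38.p6), both on the plus strand. In Chac1 the capitals mark the composite element, which reads in reverse on the printed strand. In Aars the first run of capitals marks an E-box and the second the composite element, also in reverse.
Chac1: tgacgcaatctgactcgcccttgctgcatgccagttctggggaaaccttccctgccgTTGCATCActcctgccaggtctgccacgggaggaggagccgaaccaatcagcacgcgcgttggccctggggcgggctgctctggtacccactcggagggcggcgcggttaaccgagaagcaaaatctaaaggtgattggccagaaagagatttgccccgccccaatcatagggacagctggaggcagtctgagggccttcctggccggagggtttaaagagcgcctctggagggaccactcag
Aars: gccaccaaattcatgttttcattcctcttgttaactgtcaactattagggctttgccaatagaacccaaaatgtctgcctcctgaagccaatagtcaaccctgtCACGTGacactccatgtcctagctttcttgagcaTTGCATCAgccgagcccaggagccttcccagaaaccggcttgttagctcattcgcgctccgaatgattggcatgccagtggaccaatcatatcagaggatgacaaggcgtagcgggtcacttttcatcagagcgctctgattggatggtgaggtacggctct
The element begins at -193 in Chac1 and at -112 in Aars. It was found in 4 of the 12 risen synthetase genes with a window (33.3%), against 0 of the 3 that did not rise and 105 of all 11820 tested genes (0.888%). In the ATF4 list the order was the other way, with 2 of 18 risen members (11.1%) and 4 of 9 that did not rise (44.4%). Iars, Gadd45g and Herpud1, an unfolded protein response gene that rose by 1.20, also held it.

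Ribosome assembly had the highest share of risen members of the 32 pathway lists, whose members were chosen with earlier results of these data known. Of 39 measured genes of ribosome biogenesis and RNA polymerase I, 35 rose (89.7%, against 22.2% of all genes) and none fell, with a median of 0.88. Without WT 0 h array A 38 rose, and without array B 34. Rrp12, an export factor of ribosomal subunits, read 12.08, 12.09 and 12.08 at 3 h, against 10.39 and 9.89 at 0 h (1.94 ± 0.12, adjusted p = 3.17e-08). Nop58, a core protein of the particles that methylate ribosomal RNA, rose by 1.57, the helicase gene Ddx21 by 1.55, the methyltransferase gene Nop2 by 1.48 and Heatr1, which is needed for ribosomal RNA transcription, by 1.43. The RNA polymerase I genes rose less, Polr1b by 0.92, Rrn3 by 0.77, and Ubtf by 0.74. The nucleolar chaperone gene Npm1 was bright in both groups, with 14.31, 14.42 and 14.54, against 14.42 and 14.29, a difference of 0.07 that did not pass (adjusted p = 0.543). An E-box (CACGTG), the word that MYC is known to bind, stood in 10 of the 32 risen members with a window (31.2%), against 1 of the 3 that did not rise (33.3%) and 1259 of 11820 tested genes (10.7%). Lists with few risen members held it too, as in 6 of 22 FOXO and quiescence genes that did not rise (27.3%).

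Translation factors and heat-shock proteins of the cytosol and mitochondria followed the same direction. Of 25 initiation and elongation factors 18 rose and 2 fell (median 0.59), led by Eif2s2 (1.41), a subunit of the factor that brings in the first tRNA, and the helicase gene Eif4a1 (1.18). The elongation factor genes Eef2 (-0.41) and Eef1b2 (-0.30) were the 2 that fell, Eef2 by -0.27 without WT 0 h array B, and Eef1b2 did not pass without array A. Of 26 heat-shock proteins 22 rose and none fell (median 0.59). Hspa1a read 11.06, 10.49 and 11.09 at 3 h, against 9.33 and 9.60 at 0 h (1.42 ± 0.16, adjusted p = 5.06e-06), with array B the lowest of the 3 h arrays. Hsph1 rose by 1.54, the HSP90 co-chaperone gene Stip1 by 1.18 and Dnajb1 by 1.07, and Hspb1 did not pass (-0.12, 0.497).

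Fewer of the endoplasmic reticulum chaperones rose. Of 24 members 10 rose and none fell (median 0.18). Without WT 0 h array A 12 rose (median 0.46), and without array B 7 (median 0.12). Creld2 rose by 1.60, the stress sensor gene Ern1 by 1.15 and the main chaperone gene Hspa5 by 0.73, while Sdf2l1 read 9.11, 8.80 and 9.15 at 3 h, against 9.62 and 8.52 at 0 h (-0.05, adjusted p = 0.910). Polyamine and nucleotide synthesis was also mixed, with 10 of 24 higher and 2 lower, counts that were 15 and 2 without WT 0 h array A and 6 and 5 without array B. Ctps, which makes CTP, rose by 1.73 and the spermidine synthase gene Srm by 1.35. Odc1, the first enzyme of polyamine synthesis, read 12.76, 12.66 and 12.73 at 3 h, against 12.76 and 12.02 at 0 h, and did not pass (0.33, 0.0734), with WT 0 h array A at the 3 h level.

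**Figure D2:**
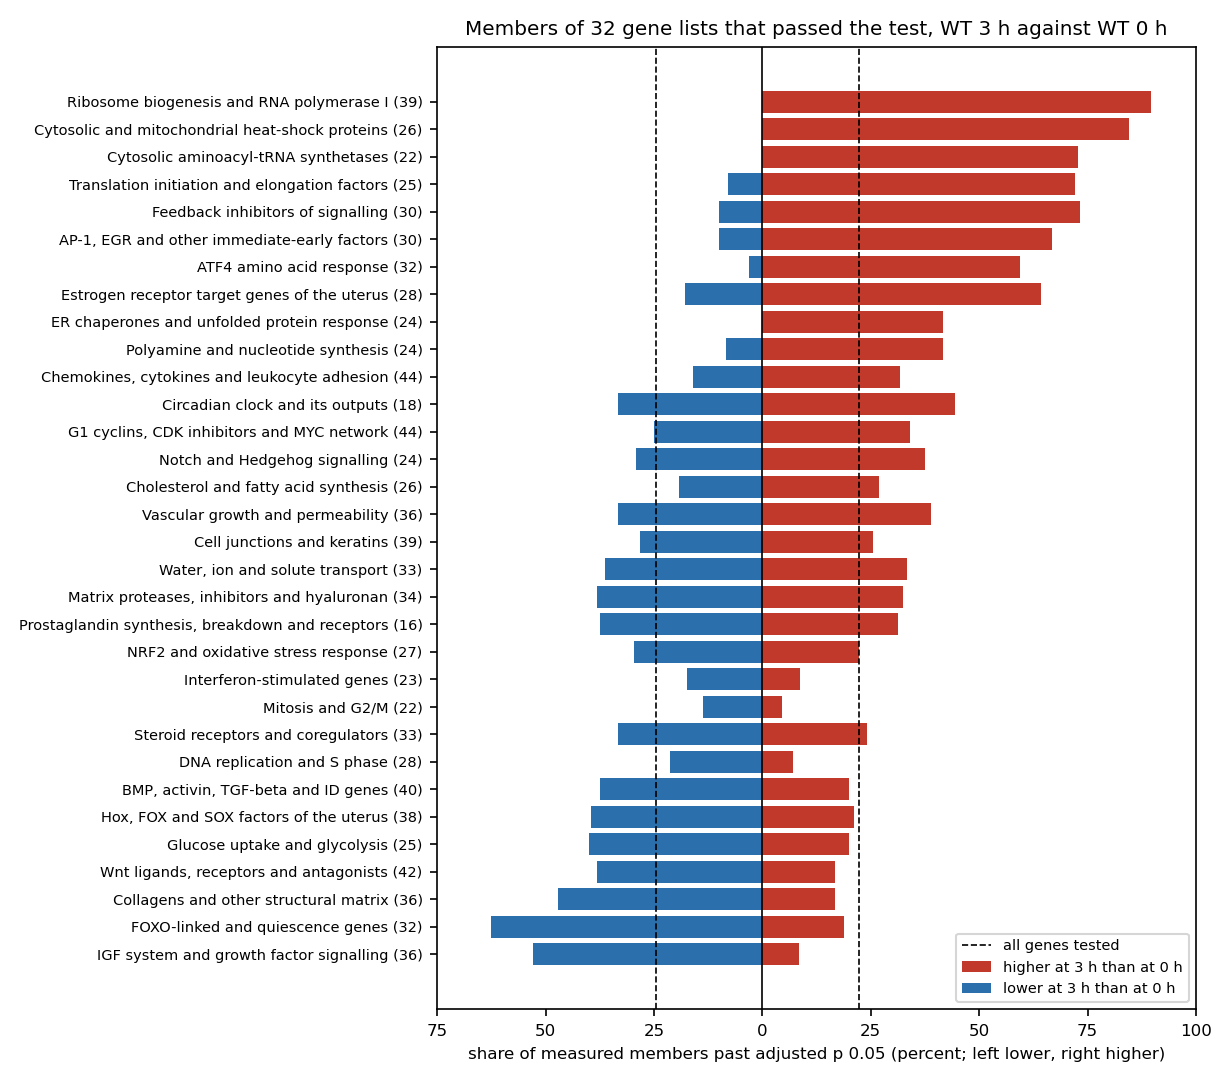
Share of the measured members of each of 32 gene lists (number measured in brackets) that were higher (right) or lower (left) at WT 3 h than at WT 0 h past an adjusted p of 0.05. Dashed lines mark the share among all 14737 genes, 22.2% higher and 24.5% lower. Members of the lists were chosen with earlier results of these data known. The ribosome list reaches 89.7% higher, and the IGF and growth factor list has 52.8% lower.

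Of 36 genes of vascular growth and permeability 14 rose (38.9%) and 12 fell (33.3%), against 22.2% and 24.5% of all genes. Among ligands of the VEGF family, Vegfa, the main permeability factor, read 13.84, 14.00 and 13.85 at 3 h, against 12.03 and 12.04 at 0 h (1.86 ± 0.11, adjusted p = 2.34e-08). Pgf, a relative that binds the receptor FLT1, read 10.35, 10.48 and 10.34, against 8.02 and 8.21 (2.28 ± 0.15, 4.26e-08). Vegfc (-0.96), which acts on lymphatic vessels, and Vegfb (-0.86) fell. The receptor gene Kdr was near the array median in both groups and did not pass (-0.04, 0.621).

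Nos3, the endothelial nitric oxide synthase gene, read 11.05, 10.92 and 10.99 at 3 h, against 9.09 and 9.24 at 0 h (1.82 ± 0.08, adjusted p = 1.60e-09). The vasodilator peptide gene Adm rose by 1.40 and the sphingosine kinase gene Sphk1 by 1.32. The receptor for adrenomedullin needs a RAMP partner, and the partners moved in opposite directions: Ramp3 rose by 3.07, whereas Ramp2 read 11.71, 11.43 and 11.29, against 12.79 and 12.44 (-1.14 ± 0.16, 4.47e-05). The endothelial genes Cldn5 (-1.44), Aplnr (-1.11) and Tek (-0.83) fell, and Pecam1, a general endothelial marker, differed by 0.26 and lost its call without WT 0 h array A or WT 3 h array B.

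Prostaglandin genes included a large rise of a synthesis enzyme and a large fall of a breakdown enzyme. Ptges, which makes prostaglandin E2, read 11.82, 12.07 and 11.59 at 3 h, against 8.37 and 8.43 at 0 h (3.43 ± 0.18, 10.8-fold, adjusted p = 6.99e-09). Hpgd, which inactivates prostaglandins, read 8.48, 8.49 and 8.43, against 10.50 and 10.39 (-1.98 ± 0.08, 1.58e-09). The prostacyclin synthase gene Ptgis rose by 0.88 and the uptake carrier gene Slco2a1 by 1.27, and the exporter gene Abcc4 fell by -1.08. The receptor gene Ptger3 fell by -0.50, and Ptger2 (-0.28), Ptgfr (-0.17) and Ptgir (-0.17) lost their call without WT 0 h array B. Ptgs2, the inducible cyclooxygenase gene, read 8.12, 8.04 and 8.24, against 8.09 and 8.10, which is below or near the array median in both groups, and did not pass (0.04, adjusted p = 0.636). In all, 5 of 16 measured genes rose (31.2%) and 6 fell (37.5%), against 22.2% and 24.5% of all genes.

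**Figure D3:**
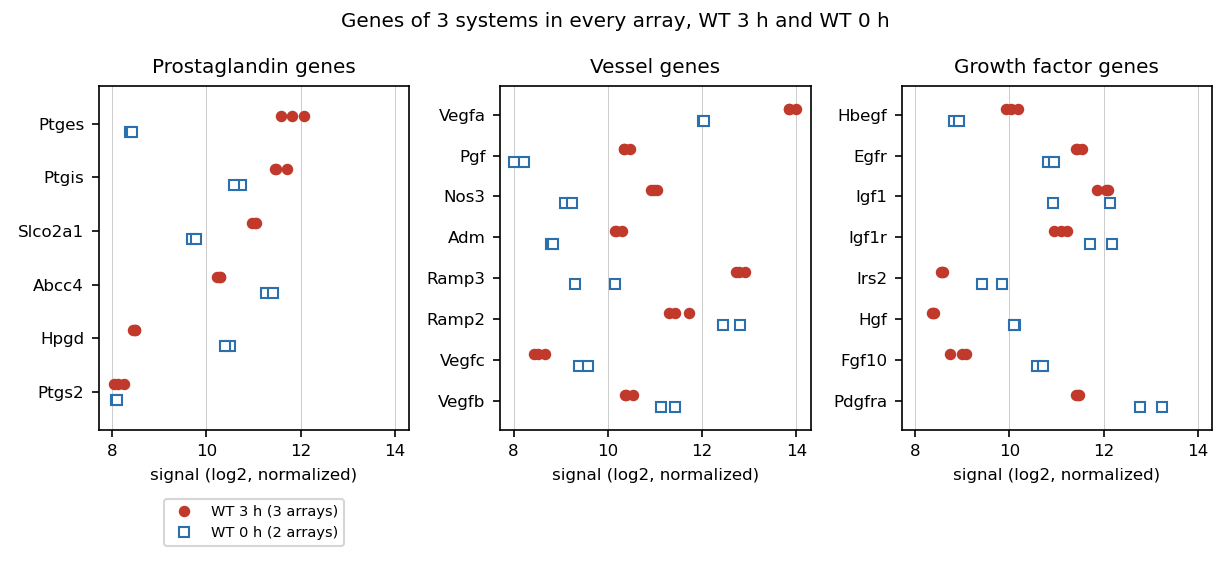
Normalized log2 signal on each array for prostaglandin genes (left), vessel genes (middle) and growth factor genes (right). Filled circles are the 3 WT 3 h arrays and open squares the 2 WT 0 h arrays. Ptges lies at 11.59 to 12.07 at 3 h, against 8.37 and 8.43 at 0 h, while the Igf1 arrays of the 2 groups overlap.

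Slc6a13 was among the largest single rises. The list of water, ion and solute transport as a whole had 11 higher (33.3%) and 12 lower (36.4%) of 33. Besides Slc6a13 and Aqp5, the noradrenaline transporter gene Slc6a2 read 12.72, 12.90 and 12.66 at 3 h, against 10.73 and 10.76 at 0 h (2.02 ± 0.16, adjusted p = 2.30e-07). The betaine carrier gene Slc6a12 rose by 1.51, the potassium channel gene Kcnk5 by 1.63, the kinase gene Sgk1, which raises sodium uptake, by 1.19 and the sodium channel subunit gene Scnn1a by 0.83. The taurine carrier gene Slc6a6 fell by -1.12 and the chloride channel gene Cftr by -0.69, the last not past the test without WT 0 h array A. Of 39 junction and keratin genes 10 rose (25.6%) and 11 fell (28.2%), close to the shares of all genes (22.2% and 24.5%). The claudin genes Cldn1, Cldn5 and Cldn3 (-1.33) led the falls, and Krt8 (-0.59) and Krt19 (-0.37) fell, while Krt7 rose by 0.92 and the fibronectin receptor gene Itga5 by 0.99.

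Of 44 genes of chemokines, cytokines and leukocyte adhesion 14 rose and 7 fell. Icam1, the adhesion molecule on endothelium, read 11.37, 11.34 and 11.42 at 3 h, against 9.44 and 9.58 at 0 h (1.87 ± 0.07, adjusted p = 6.83e-10). The chemokine gene Ccl12 rose by 1.70, the cytokine gene Il11 by 1.65, the oncostatin M receptor gene Osmr by 1.45 and the selectin gene Sele by 0.92. Lif, which the mouse uterus needs for implantation, read 8.84, 8.79 and 8.55, against 8.22 and 8.05 (0.59 ± 0.09, 5.16e-05). Il15, which sustains natural killer cells, fell by -1.71 and Cxcl14 by -0.47. The macrophage markers had 1 lower member of 13 (Lyz2, -0.91, a call lost under each of the 5 arrays left out) and none higher. The granulocyte markers had 1 higher of 11 (Prg2, 0.59).

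Regulators that hold cells before S phase changed in both directions. Of 44 G1, CDK inhibitor and MYC network genes 15 rose (34.1%) and 11 fell (25%), against 22.2% and 24.5% of all genes. Cdkn1a, the gene of the CDK inhibitor p21, read 11.40, 11.71 and 11.39 at 3 h, against 9.28 and 9.43 at 0 h (2.15 ± 0.14, adjusted p = 5.68e-08). Tob1, an antiproliferative regulator of mRNA decay, read 12.01, 12.03 and 11.98, against 9.69 and 9.70 (2.31 ± 0.19, 2.67e-07). Gadd45a (1.99), Plk2 (1.78), a kinase of stressed or early G1 cells, and E2f6 (1.03), a repressor of the E2F family, rose. Cdkn1b (-0.52), the gene of the inhibitor p27, Ccng2 (-1.28) and Mxd4 (-2.06), an antagonist of MYC, fell. The D-type cyclin genes split, with Ccnd2 higher by 0.46 and Ccnd1 lower by -0.43.

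Genes that FOXO factors and quiescence keep on mostly fell. Of 32 members 20 fell (62.5%, against 24.5% of all genes) and 6 rose, with a median of -0.42. Klhl24 read 9.94, 10.05 and 9.61 at 3 h, against 12.21 and 12.74 at 0 h (-2.61 ± 0.23, adjusted p = 4.72e-07). Sesn1, a brake on the growth kinase mTORC1, read 9.54, 9.62 and 9.51, against 11.81 and 12.18 (-2.44 ± 0.11, 1.98e-09). The ubiquitin ligase gene Fbxo32 (-2.26), the PI3 kinase inhibitor gene Pik3ip1 (-1.74), Tsc22d3 (-1.80) and Ypel3 (-1.69) fell too. Tob1 and Pdk4 (1.93), which limits glucose oxidation, went the other way, as did Foxo3 (0.62). The number of risen members was 3 without WT 0 h array A.

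Counts of replication and mitosis genes depended on which WT 0 h array was used. The mean signal of the 28 replication genes was 9.40, 9.33 and 9.35 on the WT 3 h arrays, against 9.91 on WT 0 h array A and 9.33 on array B. For the 22 mitosis genes it was 9.17, 9.11 and 9.27, against 9.59 and 8.97. With both 0 h arrays 2 replication genes rose and 6 fell. Without array A the counts were 5 and 3, and without array B 0 and 16. In the mitosis list 1 rose and 3 fell, with 2 and 1 without array A and 1 and 11 without array B, and 1 fell when any 1 of the 3 h arrays was left out. The member that rose was Mad2l1, a spindle checkpoint gene, which read 12.70, 12.79 and 12.79, against 10.14 and 9.30 (3.04 ± 0.21, adjusted p = 7.78e-08). It rose by 3.46 without array A and 2.62 without array B.

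Growth factor genes mostly fell. Of 36 genes of the IGF system and growth factor signalling 19 fell (52.8%) and 3 rose, with a median of -0.28. The stromal ligand genes Hgf and Fgf10 fell most: Hgf read 8.38, 8.41 and 8.36 at 3 h, against 10.11 and 10.10 at 0 h (-1.72 ± 0.10, adjusted p = 2.12e-08), and Fgf10 read 9.01, 9.07 and 8.73, against 10.58 and 10.72 (-1.71 ± 0.11, 4.68e-08). The receptor genes Pdgfra (-1.55), Fgfr2 (-1.29), Insr (-0.87) and Igf1r (-0.85), the adaptor gene Irs2 (-1.07) and the binding protein gene Igfbp5 (-1.42) fell. The 3 that rose were Hbegf (1.17), a ligand of the EGF receptor, the receptor gene Egfr (0.58) and Pdgfrb (0.40).

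Of 42 measured Wnt genes 7 rose and 16 fell. Among ligands Wnt4 read 11.24, 11.50 and 11.68 at 3 h, against 8.63 and 8.82 at 0 h (2.75 ± 0.18, adjusted p = 3.97e-08), Wnt5b (0.91) and Wnt7b (0.90) rose, and Wnt7a (-0.92), a ligand of the luminal epithelium, fell. The agonist gene Rspo3 read 9.28, 9.24 and 9.25, against 11.36 and 11.77 (-2.31 ± 0.11, 2.92e-09). The receptor genes Fzd10 (-1.64) and Fzd2 (-1.31) and the antagonist genes Sfrp2 (-1.15) and Nkd2 (-1.57) fell, whereas Axin2, a feedback target of the pathway, rose by 0.99. In the BMP, activin and TGF-beta list 8 rose and 15 fell of 40. The activin subunit gene Inhba rose by 1.06, and the receptor gene Acvr2b fell by -1.87. In the Notch and Hedgehog list 9 rose (37.5%) and 7 fell (29.2%) of 24, against 22.2% and 24.5% of all genes. The Notch target Hey1 was higher by 1.17 and the Hedgehog receptor gene Ptch1 lower by -1.80. The ligand gene Ihh differed by 0.30, a call lost without WT 3 h array A or WT 0 h array A.

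Matrix genes fell more often than they rose. Of 36 structural matrix genes 17 fell and 6 rose (median -0.21, or -0.35 without WT 0 h array B). Col1a1 read 10.62, 9.88 and 9.70 at 3 h, against 13.14 and 11.06 at 0 h (-2.03 ± 0.46, adjusted p = 1.97e-03), with the 2 WT 0 h arrays further apart than in any other of the 50 genes with the largest rises and falls. The fall of Col1a1 was -0.99 without WT 0 h array A and -3.07 without array B, and that of Col3a1, which was -1.75 with both, was -0.99 and -2.51. Lum (-1.83) and the crosslinking enzyme gene Lox (-1.10) fell. Besides Col8a2 and P4ha2, the elastic fibre gene Fbln2 rose by 1.35. Of 34 proteases, inhibitors and hyaluronan genes 11 rose and 13 fell. Adamts4, Adamts1 (1.77) and Adamts9 (1.70) rose, and Mmp11 (-1.84), Mmp10 (-1.21) and Mmp14 (-0.96) fell. The hyaluronan synthase gene Has1 read 10.12, 9.88 and 9.91, against 8.09 and 8.15 (1.85 ± 0.08, 1.52e-09). The matricellular genes Ccn1 (1.84) and Ccn2 (-1.03) went in opposite directions, Ccn2 by -0.66 without WT 0 h array B.

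Developmental transcription factors of the uterus had 8 higher (21.1%) and 15 lower (39.5%) of 38, against 22.2% and 24.5% of all genes. Sox9, a factor of glandular epithelium, read 13.99, 14.10 and 14.13 at 3 h, against 11.33 and 10.96 at 0 h (2.93 ± 0.15, adjusted p = 5.89e-09), and the mesenchymal factor gene Twist2 read 13.15, 13.20 and 13.10, against 10.82 and 10.75 (2.37 ± 0.13, 1.06e-08). Msc (-2.44), Meis2 (-1.90), Meis1 (-1.33) and Hand2 (-0.30) fell.

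The circadian clock list had 8 higher and 6 lower of 18. Besides Dbp, the fallen members were Per3 (-0.95), Tef (-0.87), Nr1d1 (-0.85), Per1 (-0.83) and Nr1d2 (-0.70). Per2 instead read 13.43, 13.45 and 13.60 at 3 h, against 12.54 and 12.89 at 0 h (0.78 ± 0.12, adjusted p = 5.90e-05), Cry2 rose by 0.97 and the repressor gene Bhlhe40 by 0.77. The activator gene Arntl rose by 0.46. No label gives the hour of day at which uteri were taken, so time after E2 and time of day cannot be told apart.

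Marker lists give what else differed between the groups. All genes had 22.2% higher and 24.5% lower. The smooth muscle markers (28.6% each way) lay near those shares. The lymphocyte markers lay near the higher share only (25% higher, 0% lower, median 0.26). The adipocyte markers fell most, 12 of 14 lower and none higher, with a median of -1.25. Their mean signal was 9.29, 9.68 and 9.11 on the WT 3 h arrays, against 10.37 and 10.82 on the WT 0 h arrays, and only 4 passed without WT 0 h array B. Adipoq read 9.90, 10.59 and 9.50, against 12.08 and 12.81 (-2.45 ± 0.67, adjusted p = 7.55e-03), a call lost without WT 0 h array B, as was that of Car3 (-2.16). Lpl fell by -1.84 ± 0.45 (3.61e-03). WT 3 h array B was the highest 3 h array in both genes. Scd1 (-2.09) and Cyp2e1 (-2.01) followed the same pattern and lost their call when either 0 h array, or WT 3 h array A or C, was left out. Stromal fibroblast markers had 10 lower and 1 higher of 13, with means of 10.72, 10.55 and 10.53, against 11.36 and 11.15 (median difference -0.37, or -0.58 without WT 0 h array B). Luminal and glandular epithelium markers had 5 higher (3 without WT 3 h array A or C) and 7 lower of 18, with means of 10.03, 10.04 and 10.01, against 10.16 and 10.13. Smooth muscle markers had 4 higher and 4 lower of 14 (2 lower without WT 0 h array B), endothelial markers 2 and 5 of 12, lymphocyte markers 2 and 0 of 8, mast cell markers 1 and 2 of 8 (0 lower without WT 3 h array C), mesothelial markers 0 and 3 of 7 (1 lower without WT 0 h array B or WT 3 h array C), ovary and oviduct markers 1 and 0 of 4, and erythroid markers 0 of 4. The smooth muscle gene Acta2 read 15.87 to 15.92 on all 5 arrays, at the top of the scale, and a dimmer probe of it (mean 12.4) differed by -0.37. The part of stromal or fat-cell content in the falls of matrix, growth factor and Wnt genes was not tested.

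The next question is which changes were already at their 6 h level and which were not. WT 3 h was above WT 6 h in 1874 genes (12.7%) and below it in 1957 genes (13.3%). Without WT 6 h array A the counts were 1157 and 1098, and without array B 1053 and 1047. The 3 h arrays stand in both differences, so values are given side by side. In the immediate-early list 19 of 30 members were higher at 3 h than at 6 h and none lower, and among the feedback inhibitors 17 were higher and 2 lower. Fos averaged 8.98 at 0 h, 12.47 at 3 h and 10.77 at 6 h, with 3 h above 6 h by 1.71 (adjusted p = 4.22e-05). Chac1 averaged 8.81, 12.89 and 9.09 at 0, 3 and 6 h, and Tob1 averaged 9.69, 12.01 and 9.98, so both were close to their 0 h mean again at 6 h. Pdk4, Trib3, Wwc2, Flrt1 and the protease gene Prss22 also stood among the 10 genes with the largest excess at 3 h over 6 h, of 1.71 to 2.28.

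Other lists were still short of their 6 h level. The endoplasmic reticulum chaperones were lower at 3 h than at 6 h in 13 of 24 cases and higher in 1. The synthetases were lower in 11 of 22, the cholesterol and fatty acid genes in 14 of 26 and the nucleotide list in 12 of 24. List counts against 6 h were not repeated with single arrays left out. Members such as Nars, Cyp51 and Srm lost their call without a WT 6 h array, while other members kept theirs. Creld2 averaged 10.54 at 0 h, 12.14 at 3 h and 13.20 at 6 h, with 3 h below 6 h by -1.07 (0.0135), a call lost without WT 3 h array B or without either WT 6 h array. Inhba averaged 8.94, 9.996 and 11.12 (-1.12, 6.13e-04). Igf1 was at 13.06 and 13.29 on the WT 6 h arrays, above all 3 WT 3 h arrays (-1.18, 5.73e-03), a call lost without WT 6 h array B. Some genes had a trough at 3 h: Angptl4 averaged 10.75, 9.28 and 10.91 (-1.62 for 3 h minus 6 h, 5.07e-05), Meis2 13.38, 11.48 and 12.62, and Cldn3 11.63, 10.30 and 11.36. In the ribosome list 3 of 39 members were higher and 7 lower at 3 h than at 6 h, and Rrp12 differed by -0.21 (0.253).

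**Figure D4:**
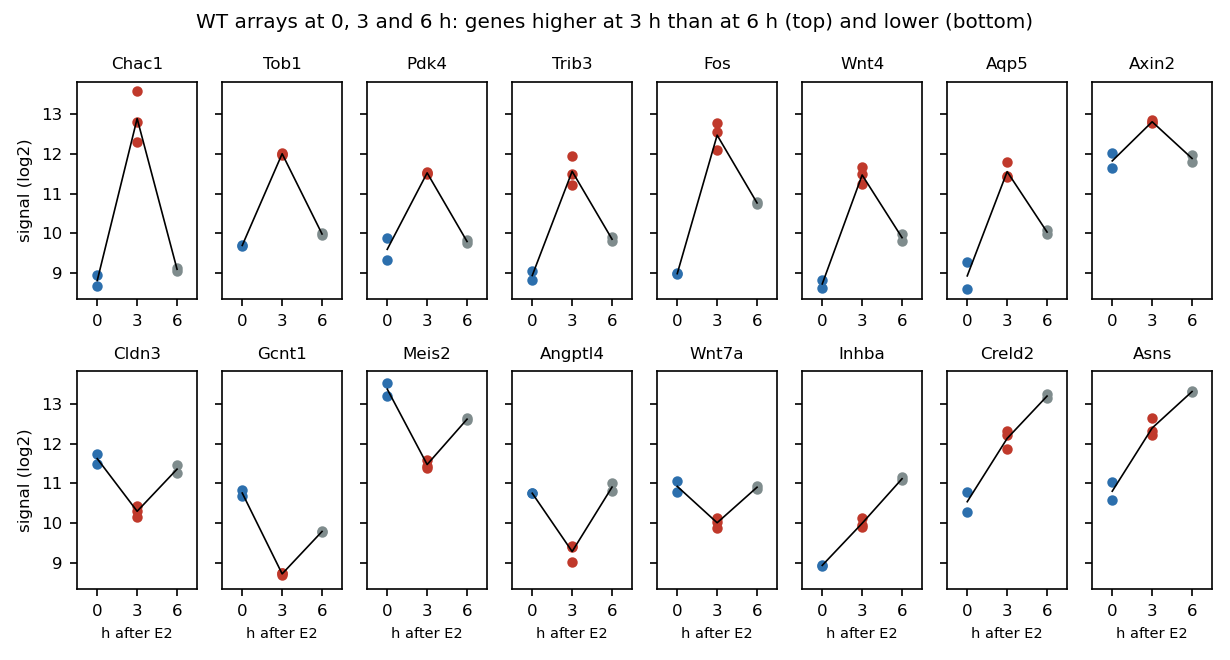
Normalized log2 signal of 16 genes on the WT arrays at 0, 3 and 6 h after E2, with 1 dot per array and a line through the group means. The top row holds genes that were higher at 3 h than at 6 h and the bottom row genes that were lower. Chac1 averages 12.89 at 3 h and 9.09 at 6 h, and Angptl4 averages 9.28 at 3 h and 10.91 at 6 h.

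The last comparison asks whether the 3 h response differed in uteri of Egr1 knockout mice. The labels give no strain, allele or cell type of the knockout, and the Egr1 probe does not check them, since it read 13.48 and 13.63 on the KO 0 h arrays, against 12.24 and 12.51 on the WT 0 h arrays. In KO uteri 2803 genes were higher at 3 h than at 0 h (19.0%) and 3149 lower (21.4%). The KO means come from arrays that the WT means do not use, but both tests share the same estimate of each gene's spread. The KO calls are therefore not a fully separate repeat of the WT calls. Of the 377 genes with a rise of at least 2-fold in WT, 369 were also called higher in KO, and of the 400 with such a fall 377 were called lower. The difference between the responses, KO minus WT, passed the test upward in 89 genes (0.604%) and downward in 72 genes (0.489%). These counts rested on single arrays: they were 318 and 238 without WT 0 h array B, 57 and 26 without WT 0 h array A, 50 and 26 without WT 3 h array A, and 40 and 35 without WT 3 h array B. They were 181 and 186 without KO 3 h array B, 52 and 30 without KO 3 h array C, and 13 and 11 without KO 0 h array B. The test called none of the ATF4, synthetase, ribosome, translation or heat-shock members, which does not show that their responses were equal.

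The genes with a smaller response in KO included several of the largest rises of WT uteri. The same WT arrays stand in the WT rise and, with the opposite sign, in the difference between the responses. Some of this overlap therefore comes with the choice of genes. Has1 read 8.94 and 8.75 in KO at 3 h, against 8.30 and 8.27 in KO at 0 h, so it rose by 0.56 in KO and by 1.85 in WT (interaction -1.29 ± 0.11, adjusted p = 0.000124). Slc6a13 rose by 2.56 in KO and 3.85 in WT (-1.30, 0.0135), and Adamts4 by 2.78 in KO and 4.01 in WT (-1.23, 0.0229). Egr3 rose by 1.53 in KO and 2.60 in WT (-1.08, 0.0325), Nos3 by 1.18 and 1.82 (-0.63, 0.0236) and Adm by 0.79 and 1.40 (-0.61, 0.0173). The Nos3 call was lost under 6 of 17 alternatives, among them the replicate block, and the Adm call under 4. That of Adamts4 was lost under 5 and that of Egr3 under 8. Pdk4 differed by 0.37 in KO, which did not pass, and rose by 1.93 in WT (-1.56, 0.0158). The Pdk4 call was lost without KO 3 h array C and without KO 0 h array B. The mitochondrial carrier gene Slc25a33 read 10.08 and 10.27 in KO at 3 h, against 10.81 and 10.62 in KO at 0 h, and fell by -0.54 in KO while it rose by 0.70 in WT (-1.23, 5.38e-04).

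In the other direction, Srek1, which encodes a splicing factor, read 10.28 and 10.17 in KO at 3 h, against 8.88 and 8.80 in KO at 0 h, and rose by 1.39 in KO, while in WT it differed by 0.04 and did not pass (interaction 1.36 ± 0.09, adjusted p = 1.86e-05). Sned1, a matrix protein gene, rose by 0.67 in KO and fell by -0.49 in WT (1.16, 0.000102). Chd1, a chromatin remodeller of active genes, rose by 1.91 in KO and by 0.89 in WT (1.02, 0.0135), and Mfap2, a microfibril gene, fell by -0.46 in KO and by -1.44 in WT (0.98, 0.0115). Of the 20 genes with the largest values, 15 lost their call under at least 1 alternative. Chd1 and Mfap2 were among them, both with the mean of kept probes. The difference kept its sign but was as small as 0.34 for Srek1 and 0.447 for Sned1 under an alternative.

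**Figure D5:**
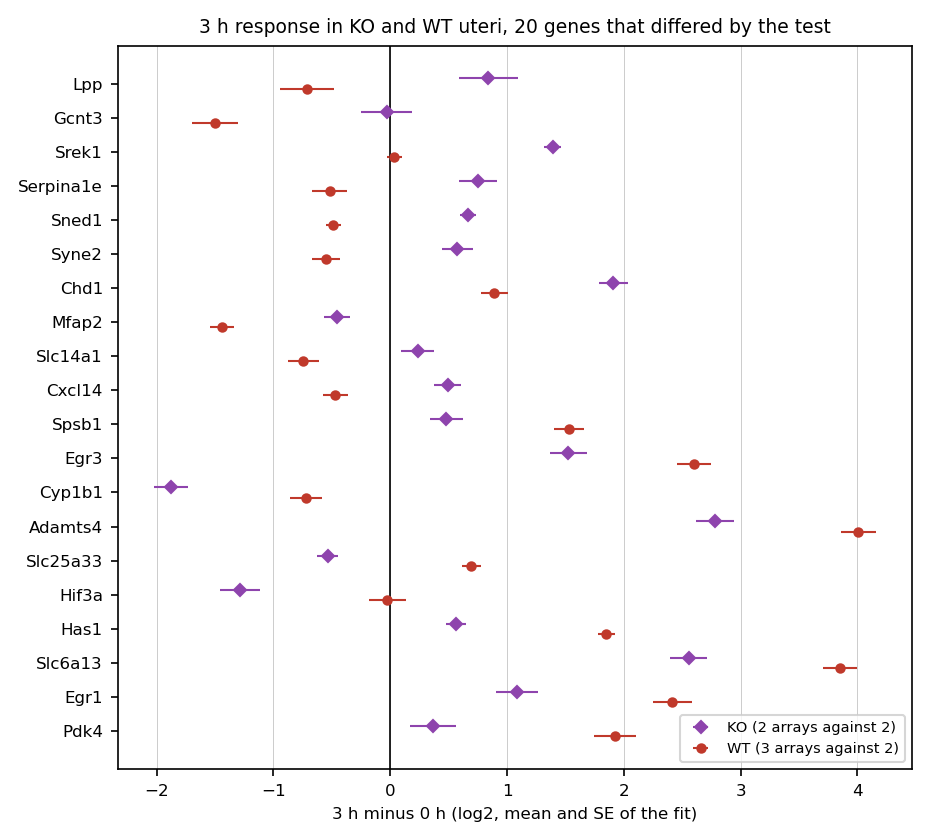
Difference between 3 h and 0 h (log2, mean and SE of the fit) in KO uteri (diamonds) and WT uteri (circles) for the 10 genes with the highest and the 10 with the lowest difference between the responses past the test. Has1 rose by 0.56 in KO and 1.85 in WT, and Srek1 by 1.39 in KO with 0.04 in WT.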

How the data were processed

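The 17 uterus samples were hybridised to 1-colour bead arrays, 3 arrays in WT 3 h and 2 in each other group. The deposited values are log2 signals per probe that the authors had already normalized: all arrays share the same quantiles (minimum 7.39, median 8.2, maximum 15.94). BeadStudio is named in the submitters' processing notes. No source used here gives the background correction, the offset or the normalization settings, and values near the floor understate changes of dim genes. The number of arrays limits the precision.

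Of 45281 probes, 34885 have 1 gene symbol in the platform annotation, 18 have several and 10378 are unnamed here. Kept probes lie above their array's median on at least 2 of 17 arrays, and the brightest stands for its gene, giving 14737 genes. Group means were fitted to all 17 arrays with limma 3.58.1 in R 4.3.3 (lmFit, eBayes, two-sided, Benjamini-Hochberg), which was tested on simulated data. Promoters are RefSeq windows on GRCm38.p6, found for 11820 tested genes.

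The genes named are the 25 largest rises and 25 largest falls with groups that do not overlap, up to 5 risen, 5 fallen and 3 bright members that did not pass in each list, and the 10 largest of each direction between 3 h and 6 h and between KO and WT responses. Further list members named in the text, such as other AP-1, EGR, DUSP, clock and RNA polymerase I genes, Esr1, Lif, Kdr and Ptgs2, fall outside that rule and were chosen after their values were seen. The members of the 44 lists were chosen with earlier results of these data known. Alternatives changed the samples fitted, the filter, the probe of a gene, the variance moderation, array weights, centring, the log floor, single arrays and the replicate block.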

Additional observations from a re-analysis of the deposited data

Results flagged for a closer look

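The response at 3 h differed between KO and WT uteri, by limma's test of the difference between both responses (KO minus WT, log2). It was larger or less negative in KO for Lpp (1.553), Gcnt3 (1.47), Srek1 (1.355), Serpina1e (1.269), Sned1 (1.155), Syne2 (1.125), Chd1 (1.017), Mfap2 (0.983), Slc14a1 (0.978) and Cxcl14 (0.961). It was smaller or more negative in KO for Pdk4 (-1.559), Egr1 (-1.33), Slc6a13 (-1.297), Has1 (-1.288), Hif3a (-1.264), Slc25a33 (-1.232), Adamts4 (-1.228), Cyp1b1 (-1.156), Egr3 (-1.078) and Spsb1 (-1.049). The Egr1 probe already read higher on the KO 0 h arrays than on the WT 0 h arrays, as given above. Its smaller response in KO therefore does not by itself show a lower signal at 3 h.

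Has1, Slc25a33, Slc6a13, Sned1 and Srek1 passed the test under each of the 17 alternatives run on them. Lpp lost its call under 11 of the 17, Gcnt3 under 10, Egr3 and Slc14a1 under 8, and Egr1 and Hif3a under 6. The size of the difference still moved across the alternatives, from 0.34 to 1.733 for Srek1 and from 0.447 to 1.662 for Sned1. No group was tested for single outlying arrays, since none has 4.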

How the results depend on the processing

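The numbers of higher and lower genes at WT 3 h against WT 0 h stayed within 1.5 times of 3272 and 3608 under each alternative run, and were 2919 to 3097 and 3189 to 3406 when 1 array was left out. With the floor subtracted before log2, 621 genes were higher and 650 lower by at least 2-fold, and with the mean of kept probes 233 were lower by at least 2-fold. The KO minus WT response counts were 25 and 21 with array weights and 40 and 40 with the floor subtracted, and 13 to 318 and 11 to 238 when 1 array was left out. Against 6 h the counts were 1053 to 1702 and 1047 to 1652 when 1 array was left out. Single genes changed sign with 1 WT 0 h array. Without replicate 1 (array A) and without replicate 2 (array B), in that order, Tyms was 0.393 and -0.564, Cdk4 0.235 and -0.175, Col6a2 0.913 and -0.575, Gjb2 0.796 and -0.729, Mcm2 0.423 and -0.412, and Pgk1 0.311 and -0.281. The cause was not tested.

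With the replicate block, 3040 genes were higher and 3283 lower, 379 and 374 of them by at least 2-fold. The block numbered arrays by their order within a group, so KO 3 h arrays B and C were matched with arrays A and B elsewhere. Its level 3 held only WT 3 h array C, so the block came close to leaving that array out. Without WT 3 h array C the counts were 3062 and 3295, with 379 and 373 at 2-fold. WT 3 h and WT 0 h share only 2 replicate letters, whose deviations correlated at 0.101 (A) and 0.20 (B), so a pairing is not established. The Granulocyte markers kept no member under the stricter filter, so that median has no value there. Signals near the array median limit what can be seen of dim genes.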

Other observations

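Metabolic lists showed no shared direction at 3 h. Of 25 genes of glucose uptake and glycolysis 5 rose (20%) and 10 fell (40%), against 22.2% and 24.5% of all genes. The median of this list was -0.123, or -0.045 without WT 0 h array A. Gapdh rose by 0.75 and the hexokinase gene Hk1 by 0.74. The phosphofructokinase gene Pfkm (-1.12, with another dim probe that disagreed) and Tkt (-0.97), of the pentose phosphate pathway, fell. Of 26 cholesterol and fatty acid genes 7 rose (26.9%) and 5 fell (19.2%), close to the shares of all genes. Without WT 3 h array A or C 3 fell. The sterol enzyme genes Msmo1 (0.91) and Cyp51 (0.82) rose.

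Of 27 NRF2 and oxidative stress genes 6 rose and 8 fell, 5 without WT 0 h array A. The shares of 22.2% higher and 29.6% lower were close to those of all genes (22.2% and 24.5%). Gpx1, a glutathione peroxidase, rose by 1.15, and the iron exporter gene Slc40a1 fell by -1.01. Gpx2 differed by -0.94 and did not pass without WT 0 h array A. Of 23 interferon-stimulated genes 2 rose and 4 fell, 2 without WT 0 h array B. The interferon shares, 8.7% higher and 17.4% lower, lay below those of all genes. Usp18 rose by 0.74 and Ifit2 differed by -1.10 and Ifit3 by -1.23, the last not past the test without WT 0 h array B.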
